A study of Mus musculus with 10 samples.

Results

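The TNF ligand and receptor superfamilies were followed in the esophagus of mice with experimental eosinophilic esophagitis. All mice were C57BL/6 and wild type (WT), and they were given either the hapten oxazolone, labelled OXA, to set up the disease, or vehicle. The members were all protein-coding genes of the deposited table whose symbol starts with Tnfsf or Tnfrsf and a digit, together with Tnf, Lta, Ltb, Ltbr, Cd40, Cd40lg, Cd27, Cd70, Fas, Fasl, Eda and Edar. They numbered 43 of 54446 genes, or of 21969 protein-coding genes, with 18 ligands and 25 receptors. RNA was sequenced as CEL-Seq libraries, a method that primes from poly(A) tails and reads transcripts near their 3′ ends. There were 10 libraries, 5 from vehicle mice (A1 to A5) and 5 from OXA mice (C1 and D1 to D4). What the letters stand for is not stated, and since no letter occurs in both groups, anything they mark cannot be told apart from treatment. The labels state no dose, schedule, route, age or sex. They also do not say whether libraries of a group came from separate mice, so a p-value here weighs a difference against the spread between libraries, which may be technical.

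Ligands of this superfamily are mostly membrane proteins that act as trimers, and proteases can release some of them from the cell. They bind receptors with cysteine-rich outer domains. Some receptors carry a death domain and can start apoptosis, while others recruit TRAF adaptors and switch on NF-kB, a group of transcription factors of inflammation. In squamous tissue, lymphocytes and myeloid cells make many of the ligands, and the epithelium and stroma carry receptors such as Tnfrsf1a, Ltbr, Tnfrsf12a and Edar.

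Recovered reads per library ranged from 5094159 (A5) to 12108822 (A4) in vehicle and from 3675479 (D2) to 8364227 (D1) in OXA. Markers of differentiated squamous epithelium (8 genes, among them Krt4 and Krt13) summed to 655068 to 1107890 normalized counts in vehicle. In OXA they summed to 215698 to 572287, so the labelled tissue carried transcripts of this list in all 10 libraries. Of these markers 7 were tested, and 5 were lower in OXA and 0 higher. Crnn, another marker of that list, had at most 3.62. Levels below are normalized counts, counts that the authors divided by 1 size factor for each library. They are given as mean ± SD with n = 5 per group. A log2 fold change is OXA minus vehicle on the log2(value + 1) scale with its standard error, and it understates the change of low genes.

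Between the groups, 9 members rose in OXA and 0 fell. The ligands that rose were Ltb, Tnfsf8 and Tnfsf13b, and the receptors were Tnfrsf9, Tnfrsf18, Tnfrsf1b, Tnfrsf13b, Tnfrsf11b and Cd40. Their log2 fold changes ran from 1.04 (Cd40) to 3.54 (Tnfrsf9). The widely known receptors Tnfrsf1a, Ltbr and Fas did not pass the test, and Tnf itself lay near the detection limit. Of the 43 members, 27 had a mean of at least 5 normalized counts over the 10 libraries and were tested with limma, 16 were below that, and 18 of the tested members did not pass an adjusted p of 0.05. Among all 14712 tested genes 15.7% were higher and 14.2% lower in OXA. Tnfsf8, Tnfrsf9 and Tnfrsf11b averaged under 5 in vehicle and passed the filter through their OXA values, so the count of 9 among 27 is partly set by the filter. The median log2 fold change of the tested members, which the filter affects in the same way, was 0.48, beside -0.01 over all tested genes. Scaling to library totals gave 2907 higher and 1540 lower genes in place of 2309 and 2085, shifted the median over all genes to 0.11 and left the members at 10 higher and 0 lower.

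Below the threshold some members were lower. At an unadjusted p of 0.05 limma gave 2 members lower, Eda and Edar, and 11 higher. The quasi-likelihood test of edgeR on recovered reads called 8 members higher and 0 lower, beside 2411 and 1972 of all genes. DESeq2 called 9 members higher and 0 lower, beside 2627 and 2249 of all genes. At an unadjusted p of 0.05 edgeR and DESeq2 gave 0 and 1 member lower. Counts over all genes at an unadjusted p of 0.05 were not taken, so the unadjusted member counts have no background. Values of the groups did not overlap for 8 tested members, all with OXA above vehicle. Over all tested genes that happened for 12.0%, and the reverse for 10.4%. Those 8 members were Ltb, Tnfsf8, Tnfrsf9, Tnfrsf18, Tnfrsf1b, Tnfrsf13b, Cd40 and Fas. Tnfsf8 and Tnfrsf9 passed the filter through their OXA values, so this count is also partly set by the filter.

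**Figure D1:**
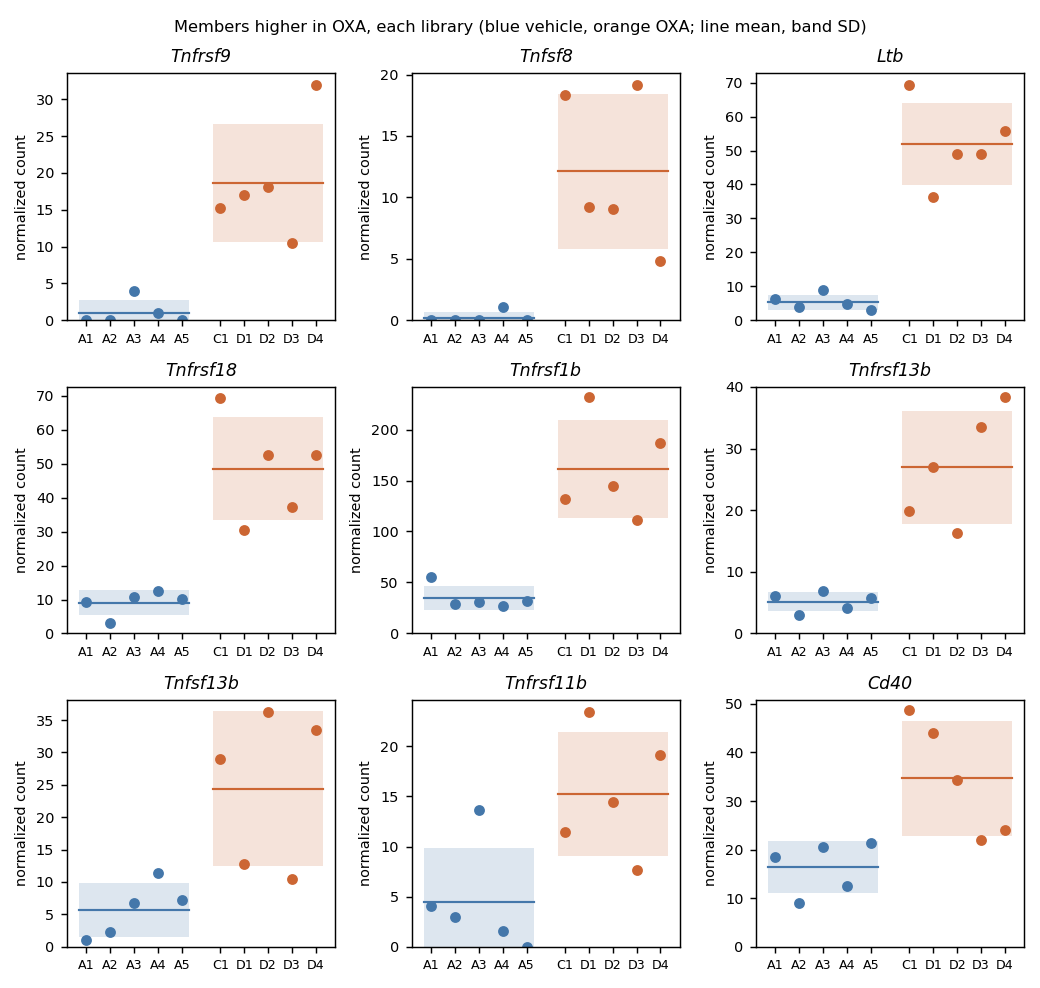
Normalized counts (vertical axes, from 0) of the 9 members higher in OXA in each of the 10 libraries, vehicle in blue and OXA in orange, with a line at the group mean and a band of 1 SD. In 7 of the 9 panels all 5 OXA points lie above all 5 vehicle points, and Tnfsf13b and Tnfrsf11b are the panels in which the groups overlap.

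**Figure D2:**
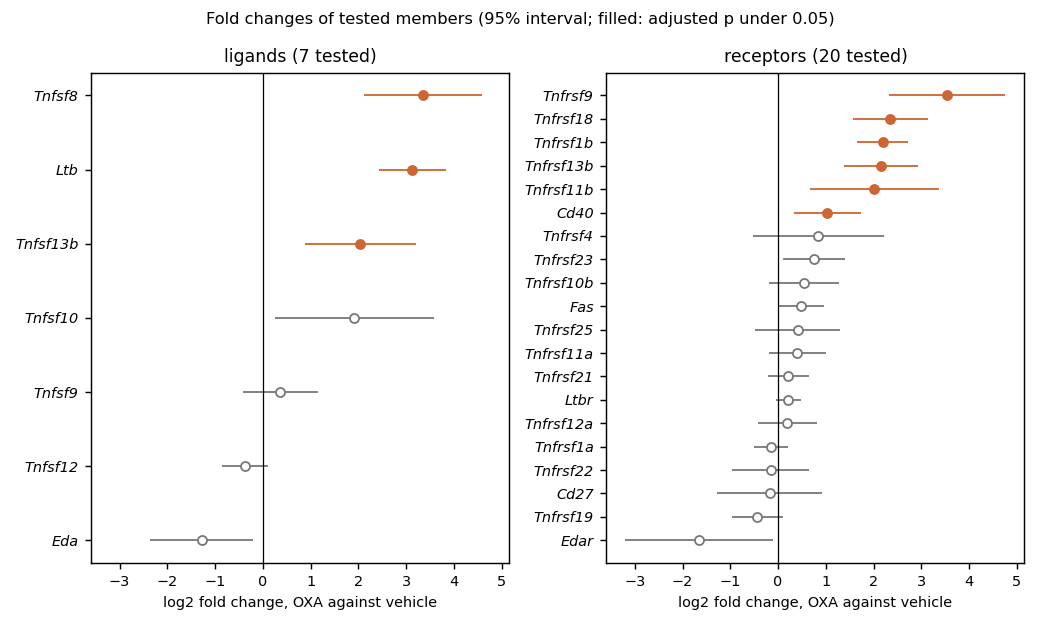
Log2 fold change (horizontal axes, OXA against vehicle) of the 7 tested ligands and the 20 tested receptors, with 95% limma intervals. Filled points passed an adjusted p of 0.05, and 20 of the 27 points lie right of 0.

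Promoter sequence was read for the members because several of them rose together. The table of RefSeq promoters used here (GRCm38.p6) matched 33 of the 43 members and 7 of the 9 called ones, Cd40 and Tnfrsf11b not among them. In the 250 bases before each start, 3 motifs were searched on both strands. They were the NF-kB decamer, the interferon response core (GAAA, any 2 bases, GAAA) and the STAT6-type palindrome (TTC, any 4 bases, GAA), and matches of different motifs did not overlap in the printed stretches. The decamer occurred in 7.25% of all 32851 windows, in 4 of the 33 members and in 2 of the 7 called members, Ltb and Tnfrsf9. The interferon core occurred in 2.98% of windows, in 4 members and in 2 called members, Tnfrsf1b and Tnfsf13b. Its match in Tnfsf13b lay 16 bases before the second RefSeq start and inside an annotated exon. The palindrome occurred in 5.85% of windows, in 3 members and in 1 called member, Tnfsf13b. These percentages are per window, while some members have more than 1 window. The 33 members had 37 windows and the 7 called members had 9. A match is a run of letters and not a bound site. The stretches below are those of called members with a match outside annotated exons, written 5′ to 3′ on the strand of the gene. Capitals mark the match, which is the decamer for Ltb (chr17:35194257-35194438, plus strand), the interferon core for Tnfrsf1b (chr4:145246871-145247120, minus strand) and the palindrome for Tnfsf13b (chr8:10006217-10006466, plus strand).
Ltb: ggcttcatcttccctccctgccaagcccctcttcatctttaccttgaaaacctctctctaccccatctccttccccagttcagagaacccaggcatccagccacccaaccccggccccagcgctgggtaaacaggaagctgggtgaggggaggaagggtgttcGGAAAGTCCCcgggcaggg
Tnfrsf1b: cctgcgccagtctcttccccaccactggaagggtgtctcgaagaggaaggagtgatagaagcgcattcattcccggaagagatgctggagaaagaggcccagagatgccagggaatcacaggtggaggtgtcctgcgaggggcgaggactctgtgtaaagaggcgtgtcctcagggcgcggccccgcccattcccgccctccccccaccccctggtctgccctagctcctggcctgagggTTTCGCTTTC
Tnfsf13b: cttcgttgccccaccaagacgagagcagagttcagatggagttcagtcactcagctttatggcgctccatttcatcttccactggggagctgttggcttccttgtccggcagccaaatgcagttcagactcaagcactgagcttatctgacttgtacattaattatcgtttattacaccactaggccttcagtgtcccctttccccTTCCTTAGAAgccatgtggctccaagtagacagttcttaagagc
In Tnfrsf9 the decamer matched within the run GGGGATTTCCC (chr4:150927956-150927966, plus strand), 43 bases before the second of its RefSeq starts and inside an annotated exon.

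The genes for TNF and both lymphotoxins lie side by side on chromosome 17 (GRCm38). Ltb (ENSMUSG00000024399.5, chromosome 17, 35194439 to 35196620) encodes lymphotoxin beta, which anchors lymphotoxin alpha to the membrane and binds Ltbr. It stood at 6.16, 3.75, 8.77, 4.67 and 2.86 in A1 to A5 and at 69.46, 36.25, 48.88, 48.84 and 55.87 in C1 and D1 to D4. The lowest OXA library was thus well above the highest vehicle library. Group means were 5.24 ± 2.32 and 51.9 ± 12.1, a log2 fold change of 3.13 ± 0.33 (limma adjusted p = 1.46e-05). Tnf (ENSMUSG00000024401.14, 35199081 to 35202007), the founding cytokine of the family, lies on the other strand, with 2461 bases between the annotated ends of both genes. It had 2 reads in all vehicle libraries together, both in A2, and 13 in OXA, of which D1 held 12 and C1 held 1. Lta, which encodes lymphotoxin alpha, lies 858 bases from Tnf and had 2 reads in vehicle and 5 in OXA. Neither reached the filter. The pooled ratio for Tnf was 7.84 with a counting interval from 1.77 to 71.6, and it rests on D1, since the other 4 OXA libraries held 1 read together.

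Of both TNF receptors and Ltbr, Tnfrsf1b passed the test. Tnfrsf1b (ENSMUSG00000028599.10, chromosome 4, 145213163 to 145246870), the TNF receptor without a death domain that is found mainly on leukocytes and endothelium, is one of the promoters printed above. It measured 55.47, 28.50, 31.18, 26.49 and 31.48 in A1 to A5 and 132.06, 231.72, 144.84, 111.09 and 186.77 in C1 and D1 to D4. Even the lowest OXA library was above A1, the highest vehicle library. The means were 34.6 ± 11.8 and 161 ± 48.1, with a log2 fold change of 2.19 ± 0.25 (limma adjusted p = 2.56e-05). Tnfrsf1a, the broadly expressed TNF receptor that carries a death domain, stood at 388 ± 44.0 and 357 ± 81.4. Its log2 fold change was -0.14 with a 95% interval from -0.49 to 0.21 (limma adjusted p = 0.542). Ltbr, the lymphotoxin beta receptor of stroma and epithelium, stood at 318 ± 12.3 and 371 ± 47.1, and its interval ran from -0.05 to 0.48. It passed in 1 of 23 alternatives, scaling to library totals (limma adjusted p = 0.0410). The interval of Tnfrsf1b ran from 1.66 to 2.72, and the difference between these receptors was not tested.

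Of 8 ligands that costimulate T cells 2 were tested, and of those Tnfsf8 rose. Tnfsf8 (ENSMUSG00000028362.2, chromosome 4, 63831008 to 63861347) encodes the CD30 ligand, which activated T cells and some antigen-presenting cells display. It had no read in 4 vehicle libraries and 1.04 normalized counts in A4, against 18.32, 9.24, 9.05, 19.15 and 4.79 in C1 and D1 to D4. All OXA libraries were higher than A4. In reads this was 2 over all vehicle libraries and 65 over all OXA libraries, a pooled ratio of 39.2 with an exact 95% counting interval from 10.4 to 331. The fitted log2 fold change of 3.36 ± 0.58 (limma adjusted p = 6.51e-04) ranged over the alternatives that tested it from 1.64, with a pseudocount of 5, to 5.14, with DESeq2 on recovered reads. Tnfsf9, whose product binds Tnfrsf9, stood at 9.9 ± 3.54 and 13.0 ± 4.04 with overlapping groups (log2 fold change 0.37 ± 0.37, limma adjusted p = 0.486).

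The remaining costimulatory ligands stayed under the filter. Tnfsf14, which encodes LIGHT and binds Ltbr and Tnfrsf14, had 2 reads in vehicle and 18 in OXA, in 4 of 5 OXA libraries. Its pooled ratio was 10.9 with a counting interval from 2.60 to 96.5. Tnfsf15, a ligand of Tnfrsf25 made by endothelial and myeloid cells, had 1 read in vehicle and 9 in OXA. With no filter on low values Tnfsf14 passed limma (adjusted p = 0.0420) and Tnfsf15 did not (adjusted p = 0.0550). Tnfsf4, the OX40 ligand, averaged 1.01 ± 1.01 and 1.30 ± 2.01. Cd40lg, the T cell ligand of Cd40, had 0 reads in vehicle and 2 in OXA, and Cd70 and Tnfsf18 had no read in any library.

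Among the receptors of T cells, Tnfrsf9 and Tnfrsf18 rose. Tnfrsf9 (ENSMUSG00000028965.13, chromosome 4, 150914562 to 150946402), a costimulatory receptor that T cells gain on activation, was at 0, 0, 3.90, 1.04 and 0 in A1 to A5. It stood at 15.27, 17.06, 18.10, 10.53 and 31.93 in C1 and D1 to D4, every one of them above A3. The log2 fold change was 3.54 ± 0.57 (limma adjusted p = 4.10e-04). Tnfrsf18 (ENSMUSG00000041954.18, chromosome 4, 156026164 to 156029195), which encodes GITR, a receptor of regulatory and activated T cells, measured 9.24, 3.0, 10.72, 12.46 and 10.02 in vehicle and 69.46, 30.56, 52.50, 37.35 and 52.68 in OXA. Again no OXA library reached down to the vehicle range. Its log2 fold change was 2.35 ± 0.37 (limma adjusted p = 3.25e-04). The antisense gene Gm16008 shares exon bases with Tnfrsf18, and its own row averaged 0.586 and 1.05.

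Tnfrsf4, which encodes OX40, is the gene next to Tnfrsf18, 9252 bases away. It stood at 3.94 ± 2.39 and 7.49 ± 5.10 and did not pass (log2 fold change 0.84 ± 0.64, limma adjusted p = 0.345). Its 95% interval from -0.53 to 2.21 overlapped that of Tnfrsf18, 1.56 to 3.13. Cd27, a receptor of naive and memory lymphocytes, measured 17.46, 6.00, 7.80, 8.31 and 2.86 in vehicle and 8.40, 11.37, 3.62, 2.87 and 9.58 in OXA. Those ranges cover each other, and the interval of its log2 fold change ran from -1.28 to 0.93. Tnfrsf8, the receptor of Tnfsf8, had 2 reads in vehicle and 8 in OXA, and Tnfrsf14 had 1 and 4.

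Markers of T cells moved with these receptors. Of 13 T cell markers, all tested, 11 were higher in OXA, and their summed level was 139 to 209 in vehicle and 574 to 747 in OXA. The background for this and the other marker lists is the share over all tested genes, 15.7% higher and 14.2% lower. No T cell marker was at 0 in all libraries of a group. Of 5 regulatory T cell markers 4 were tested and 1, Ctla4, was higher, while Foxp3 averaged 1.29 and 2.50. The summed regulatory list was 233 to 260 in vehicle and 253 to 803 in OXA, and most of it was Ikzf2. D4 alone, with 747 of Ikzf2, set the upper end, and the next OXA library summed to 344. Their part in the result for Tnfrsf9 and Tnfrsf18 was not tested. In whole tissue, more cells of a type and more RNA per cell cannot be told apart, and this holds for every gene described here.

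The B cell survival axis held the one ligand and receptor pair of which both members rose. Of 28 known pairs among members, 9 had both partners tested. Tnfsf13b (ENSMUSG00000031497.9, chromosome 8, 10006467 to 10039372) encodes BAFF, a survival factor of B cells that myeloid cells and stroma release. It measured 1.03, 2.25, 6.82, 11.43 and 7.15 in vehicle and 29.01, 12.79, 36.21, 10.53 and 33.52 in OXA, so D3 fell below A4 and the groups overlapped. The log2 fold change was 2.04 ± 0.54 (limma adjusted p = 0.0119), and it lost its call without A5, D2 and D4, the 3 shallowest libraries (limma adjusted p = 0.0703). Tnfrsf13b (ENSMUSG00000010142.12, chromosome 11, 61126755 to 61149672) encodes TACI, a receptor of BAFF and APRIL on B cells and plasma cells. It measured 6.16, 3.0, 6.82, 4.15 and 5.72 in vehicle and 19.85, 27.01, 16.29, 33.52 and 38.31 in OXA, with no overlap, and its log2 fold change was 2.16 ± 0.36 (limma adjusted p = 5.21e-04).

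The other receptors of BAFF stayed low. Tnfrsf13c, the BAFF receptor of mature B cells, averaged 1.73 ± 1.53 and 2.83 ± 2.98. Tnfrsf17, which encodes BCMA of plasma cells, averaged 2.65 ± 1.87 and 3.95 ± 3.64, and D1 had no read of it. Of 13 markers of B cells and plasma cells 9 were tested, and 6 were higher and 1, Sdc1, lower. Their summed level was 2213 to 3115 in vehicle and 3732 to 7047 in OXA, with Pax5 at 0 in all vehicle libraries. In vehicle that sum was mostly Sdc1, which epithelium also expresses (1460 ± 340 and 952 ± 236), and Xbp1 (811 ± 124 and 916 ± 187, not passed). The immunoglobulin genes rose, Ighm from 109 ± 92.5 to 978 ± 616, Igkc from 207 ± 214 to 1964 ± 866 and Jchain from 30.4 ± 30.4 to 296 ± 65.7. The part of these markers in the result for Tnfrsf13b was not tested.

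Cd40 (ENSMUSG00000017652.16, chromosome 2, 165055627 to 165073248), the receptor through which T cells activate B cells, dendritic cells and macrophages, had the smallest log2 fold change of the called members. It measured 18.49, 9.0, 20.46, 12.46 and 21.46 in vehicle and 48.85, 44.07, 34.40, 22.03 and 23.95 in OXA. D3 exceeded A5, the highest vehicle library, by less than 1 normalized count, so the groups only just failed to overlap. The log2 fold change of 1.04 ± 0.33 (limma adjusted p = 0.0278) missed the threshold in 5 of 23 alternatives, which were no filter on low values (limma adjusted p = 0.0623) and those without A2, A4, C1 or D1 (limma adjusted p = 0.0621 to 0.0774). Tnfrsf11a, which encodes RANK, stood at 19.5 ± 4.91 and 26.0 ± 6.45 (limma adjusted p = 0.301). Of 9 markers of dendritic cells 8 were tested and 4 were higher. Their summed level was 185 to 221 in vehicle and 328 to 766 in OXA and was mostly Fscn1. Of 12 markers of macrophages and monocytes, all tested, 10 were higher, with 3052 to 5385 and 6283 to 12257. The part of both lists in the result for Cd40 was not tested.

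Tnfrsf11b (ENSMUSG00000063727.3, chromosome 15, 54250319 to 54278484) encodes osteoprotegerin, a secreted decoy that captures the ligand of RANK. It measured 4.11, 3.0, 13.64, 1.56 and 0 in vehicle and 11.45, 23.46, 14.48, 7.66 and 19.16 in OXA. A3 lay above C1 and D3, so the groups overlapped. Its log2 fold change of 2.01 ± 0.63 (limma adjusted p = 0.0270) was the least stable of the called members, with the call lost in 7 of 22 alternatives. These were no filter on low values, edgeR, and leaving out A4, A5, D1 or D4 singly or the 3 shallowest libraries together, with adjusted p between 0.0511 and 0.126. Tnfsf11, the ligand it captures, had 3 reads in vehicle and 4 in OXA.

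Death ligands and death receptors gave no call among the tested members. Fasl, the ligand with which cytotoxic lymphocytes kill through Fas, stayed under the filter at 0, 0, 0.97, 0.52 and 0 in vehicle and 5.34, 2.13, 1.81, 1.92 and 7.98 in OXA. Each OXA library was above each vehicle library (unadjusted exact two-sided permutation p = 0.00794, the smallest that 5 against 5 libraries allow). Among other members under the filter that test gave 0.0476 for Tnfsf14 and Tnfsf15 and larger values for the rest. The separation of Fasl rests on few reads, since D2 held 1 and D3 held 2. A read count of 0 in A5 allows up to 4.29 normalized counts, which is above D1, D2 and D3. With no filter on low values limma gave Fasl an adjusted p of 0.0145. In reads Fasl had 2 against 18, a pooled ratio of 10.9 with a counting interval from 2.60 to 96.5. Fas measured 26.71, 18.75, 23.39, 25.97 and 21.46 in vehicle and 38.17, 34.12, 27.16, 30.65 and 33.52 in OXA. Its groups did not overlap either, yet D2 exceeded A1 by under 1 normalized count, and the log2 fold change of 0.48 ± 0.23 did not pass in limma (adjusted p = 0.126) or in any of 23 alternatives. Of 7 markers of NK cells 4 were tested and all 4 were higher. The 7 summed to 8.22 to 32.2 in vehicle and 106 to 263 in OXA, with Klrb1c at 0 in vehicle. At that vehicle level the tested markers, as a set, passed the filter mostly through their OXA values. The count of 4 is thus partly set by the filter. The part of these markers in the result for Fasl was not tested.

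Tnfsf10 encodes TRAIL, a death ligand that interferons induce in many cells. It measured 3.08, 12.75, 30.21, 19.74 and 0 in vehicle and 25.19, 31.28, 50.69, 12.45 and 46.29 in OXA, with wide overlap. The log2 fold change of 1.92 ± 0.78 did not pass (limma adjusted p = 0.0784), though it passed without A3 (limma adjusted p = 0.0366). It did not pass in the other 22 of 23 alternatives, and over all of them it ranged from 0.70 to 2.40. Tnfrsf10b, its death receptor in mice, stood at 23.1 ± 6.65 and 35.2 ± 14.9 (limma adjusted p = 0.253). The mouse decoy receptors of TRAIL, Tnfrsf22 and Tnfrsf23, lie 15848 bases apart on chromosome 7 and are close relatives, so reads may be shared between them. Tnfrsf23 stood at 40.9 ± 14.2 and 68.7 ± 23.1 (log2 fold change 0.75 ± 0.30, limma adjusted p = 0.0743), and Tnfrsf22 at 26.1 ± 7.53 and 25.5 ± 12.9. Tnfrsf26, in the same cluster, averaged 2.63 and 3.32. The death domain receptors Tnfrsf21 (154 ± 15.7 and 186 ± 60.8) and Tnfrsf25 (6.59 ± 3.25 and 8.36 ± 0.977) did not pass.

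Ectodysplasin and its receptor, which direct the growth of hair, teeth and glands from epithelium, were the members with the lowest log2 fold changes. Eda measured 34.92, 35.25, 35.08, 31.16 and 61.53 in vehicle and 31.30, 28.43, 9.05, 26.82 and 3.19 in OXA. A4 lay below C1 by less than 1 normalized count and above the other 4 OXA libraries. The log2 fold change was -1.28 ± 0.50 (limma adjusted p = 0.0698), and it passed under quantile normalization and without C1 or D1 (limma adjusted p = 0.0428 to 0.0490). It did not pass in the other 20 of 23 alternatives, and over all of them it ranged from -1.53 to -0.23. The lowest OXA values of Eda, in D2 and D4, were 5 and 2 reads. Edar measured 23.63, 7.50, 7.80, 8.31 and 5.72 in vehicle and 3.82, 0, 0, 7.66 and 7.98 in OXA, and its log2 fold change of -1.65 ± 0.72 did not pass (limma adjusted p = 0.0986). Eda2r, a second receptor of ectodysplasin that the symbol rule does not cover, went from 36.8 ± 13.8 to 80.7 ± 45.5 (log2 fold change 1.06 ± 0.33, limma adjusted p = 0.0272), with 161.35 in D1. That call was lost without A3, A4 or D1 (limma adjusted p = 0.0537 to 0.0707).

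The receptor Tnfrsf12a (Fn14), which injured tissue is known to induce, and its ligand Tnfsf12 (TWEAK) did not pass. Tnfrsf12a measured 107.86, 97.49, 114.00, 72.19 and 117.33 in vehicle and 103.81, 272.95, 88.71, 85.24 and 94.18 in OXA. Apart from D1, the OXA libraries lay inside the vehicle range, and without D1 the log2 fold change was -0.11 in place of 0.20 ± 0.29 (limma adjusted p = 0.640). Tnfsf12 stood at 160 ± 12.6 and 129 ± 39.1, where D4 held 63.85 (log2 fold change -0.38 ± 0.22, limma adjusted p = 0.220). Tnfsf13, which encodes APRIL and lies 166 bases from Tnfsf12, had no read in any library. It shares exon bases with the read-through gene Tnfsfm13 on the same strand and with the antisense gene Tnfsf13os, and the labels do not say how shared bases or strand were counted. Tnfsf13os went from 26.1 ± 11.3 to 8.46 ± 5.49 (log2 fold change -1.63 ± 0.47, limma adjusted p = 0.0177). Tnfrsf19, a receptor of epithelial progenitors, stood at 78.1 ± 21.1 and 57.8 ± 15.7 (limma adjusted p = 0.206).

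**Figure D3:**
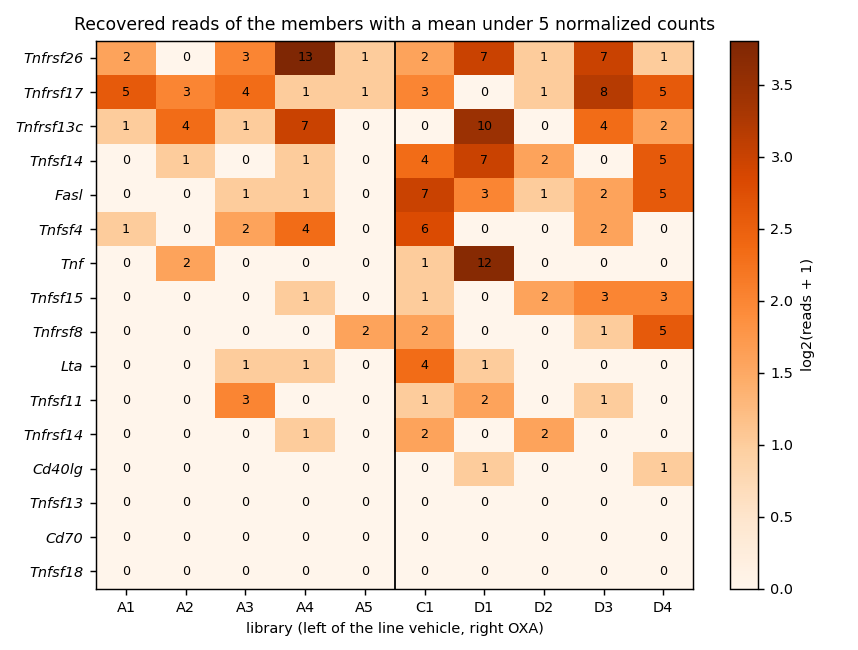
Recovered reads (numbers in the cells, colour as log2(reads + 1)) of the 16 members below the filter in the 5 vehicle libraries, left of the line, and the 5 OXA libraries, right of it. Fasl has a read in all 5 OXA libraries, 12 of the 15 Tnf reads are in D1, and Tnfsf13, Cd70 and Tnfsf18 are at 0 throughout.

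A read count of 0 in a library allows up to 3 reads, which is 1.56 (A4) to 4.29 (A5) normalized counts in vehicle and 2.13 (D1) to 5.43 (D2) in OXA, and these limits cover counting error only. Among the 16 members under the filter, 3 had no read anywhere, and 2, Fasl and Tnfrsf26, had a read in all OXA libraries. Where vehicle had 1 to 3 reads, the counting interval of the pooled ratio lay above 1 for Fasl, Tnfsf14, Tnfsf15 (1.5 to 476) and Tnf, and included 1 for Lta, Tnfsf11, Tnfrsf14 and Tnfrsf8. Such an interval leaves out the spread between libraries.

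Members that lie side by side were not called together. Of the members, 22 lie within 200000 bases of another one, in 9 groups of neighbours, and none of those groups held 2 called members. In 4 of them 1 member was called, namely Ltb beside Tnf and Lta, Tnfsf8 beside Tnfsf15, Tnfrsf1b beside Tnfrsf8, and Tnfrsf18 beside Tnfrsf4. Of the neighbours of these called genes only Tnfrsf4 was tested, and the others lay under the filter. Joint calls were thus mostly not possible in these groups, and their absence compares detection as well as change.

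Genes that act below the receptors were read from lists that name them by role, and some genes stand in more than 1 list. The background for each list is the share over all tested genes, 15.7% higher and 14.2% lower. Among 41 adaptors, kinases and ubiquitin enzymes, all tested, 13 were higher and 0 lower, with a median log2 fold change of 0.32. The 13 include Traf1 and Edaradd, which averaged 4.99 and 4.52 in vehicle and passed the filter through their OXA values. This count is thus also partly set by the filter. Traf1, an adaptor that binds Tnfrsf1b, Tnfrsf9 and Cd40, measured 3.08, 5.25, 7.80, 8.83 and 0 in vehicle and 40.46, 24.88, 27.16, 34.48 and 60.66 in OXA (log2 fold change 2.97 ± 0.56, limma adjusted p = 0.00128). Birc3, a ubiquitin ligase of these receptor complexes, went from 62.8 ± 6.01 to 167 ± 36.1, and its relative Birc2 from 108 ± 24.8 to 177 ± 16.7. Map3k14, the kinase that starts the noncanonical NF-kB route below Ltbr, Cd40 and the BAFF receptor, went from 14.2 ± 5.15 to 31.0 ± 8.87 (limma adjusted p = 0.0240). It missed the threshold with no filter on low values and without A2, A5 or C1 (limma adjusted p = 0.0527 to 0.0594). The largest log2 fold change of this list was that of Mlkl, the pore-forming executor of necroptosis, from 10.4 ± 3.88 to 119 ± 51.3 (3.40 ± 0.34, limma adjusted p = 9.36e-06). Map3k5, a kinase of the stress response below TNF receptors, went from 52.1 ± 8.77 to 141 ± 15.8 (log2 fold change 1.43 ± 0.17, limma adjusted p = 3.27e-05). Ripk3, the kinase that activates Mlkl, went from 8.26 ± 3.75 to 30.7 ± 8.51. Tnfaip3, the feedback inhibitor A20, stood at 16.5 ± 4.57 and 25.7 ± 7.42 and did not pass (limma adjusted p = 0.138).

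Of 11 NF-kB subunits and members of the inhibitor family, all tested, 7 were higher and 0 lower (median 0.78). Nfkb2, the precursor processed in the noncanonical route, measured 148.94, 157.49, 185.13, 191.64 and 157.40 in vehicle and 388.53, 414.40, 494.25, 433.84 and 335.23 in OXA (log2 fold change 1.29 ± 0.14, limma adjusted p = 1.98e-05). Nfkb1 rose by 0.98 ± 0.12, Rel by 0.99 ± 0.23 and Rela by 0.65 ± 0.16 on the log2 scale. Of the nuclear members of the inhibitor family, Nfkbid went from 8.78 ± 3.98 to 22.3 ± 4.24 (limma adjusted p = 0.00964). Nfkbiz went from 92.4 ± 27.7 to 160 ± 48.7 (limma adjusted p = 0.0304). Without the 3 shallowest libraries both calls were lost, and that of Nfkbiz also without A3, A5, C1, D2 or D4 (limma adjusted p = 0.0507 to 0.221 over the alternatives named). Relb, the partner of the Nfkb2 product, stood at 45.1 ± 13.8 and 50.7 ± 10.9 (limma adjusted p = 0.595). Among 33 genes known to be induced through TNF and NF-kB, 25 were tested, and 13 were higher and 2 lower (median 0.87). Junb, a subunit of the transcription factor AP-1, went from 674 ± 152 to 2171 ± 482 (limma adjusted p = 2.81e-05). The acute phase gene Saa3 went from 15.2 ± 8.58 to 337 ± 264, Cxcl10, a chemokine that interferons also induce, from 42.9 ± 41.0 to 326 ± 40.7, and the adhesion molecule Vcam1 from 70.4 ± 10.4 to 243 ± 51.3. The 2 lower genes, Gadd45b and Sod2, were named after their values were seen. Gadd45b went from 73.5 ± 16.0 to 46.7 ± 4.87 and Sod2 from 1584 ± 227 to 1200.5 ± 101.

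Of 11 genes that respond to Ltbr, 7 were tested and 3 were higher, namely Vcam1, Nfkb2 and Cxcl13, with 0 lower. Cxcl13, the attractant of B cells, went from 38.6 ± 10.5 to 78.9 ± 29.2 (log2 fold change 0.97 ± 0.29, limma adjusted p = 0.0224), a call lost without A5, D1 or D3 (limma adjusted p = 0.0510 to 0.0546). The lymph node chemokine Ccl21a (296 ± 88.9 and 481 ± 288), the adhesion molecule Icam1 (65.0 ± 11.0 and 87.6 ± 39.5) and the lymphocyte survival cytokine Il7 (4.64 ± 3.60 and 7.42 ± 3.89) did not pass. Among 7 proteases that release ligands and their regulators, Adam10, which cleaves several members, rose from 199 ± 25.7 to 376 ± 45.6 (limma adjusted p = 2.46e-04). Rhbdf1, a partner of the TNF-releasing protease Adam17, fell from 292 ± 22 to 125 ± 24.7 with no overlap (log2 fold change -1.23 ± 0.15, limma adjusted p = 5.90e-05). Adam17 itself stood at 198 ± 19.5 and 247 ± 20.4 (limma adjusted p = 0.0771) and passed after scaling to library totals (limma adjusted p = 0.0140). The protease inhibitor Timp3, Rhbdf2 and the proprotein convertase Furin did not pass, with log2 fold changes of -0.23, 0.32 and 0.18. Of the receptors with other symbols, Ngfr, the neurotrophin receptor of nerve and basal epithelium, went from 28.0 ± 9.72 to 12.4 ± 6.58 (limma adjusted p = 0.0479), and that call was lost in 16 of 23 alternatives. The 7 markers of nerve and Schwann cells, Ngfr among them, summed to 446 to 1325 in vehicle and 203 to 778 in OXA, and their part was not tested. Relt stood at 35.7 ± 6.76 and 58.8 ± 35.7 and did not pass (limma adjusted p = 0.296), though it passed without the 3 shallowest libraries (limma adjusted p = 0.0180).

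**Figure D4:**
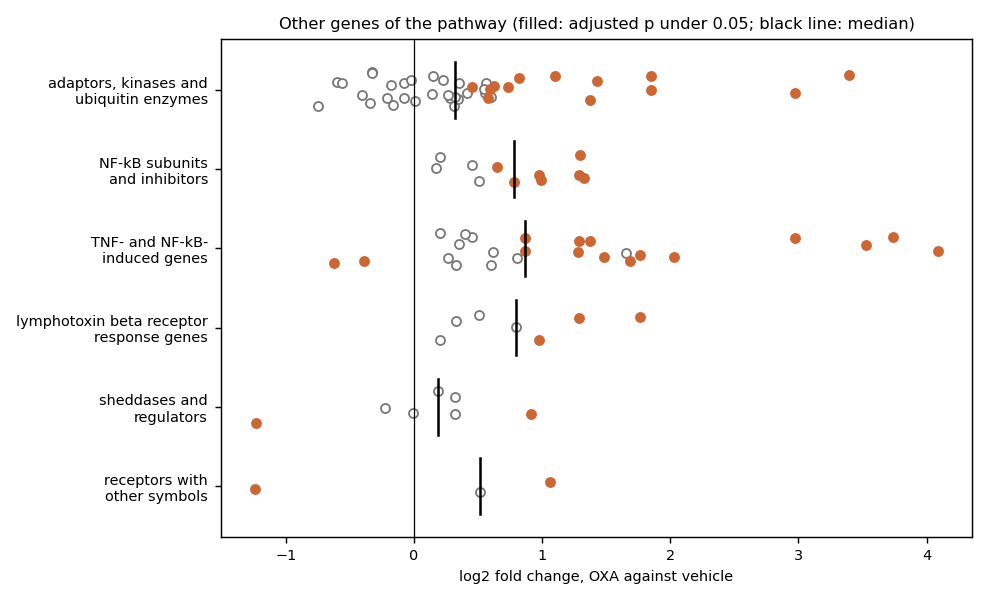
Log2 fold change (horizontal axis, OXA against vehicle) of the tested genes of each pathway list, 1 point a gene, with filled points past an adjusted p of 0.05 and a black line at the list's median. In all, 33 of the 84 tested genes are higher and 4 lower, and some genes stand in more than 1 list. Over all tested genes 15.7% are higher and 14.2% lower.

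The members divide into calls that held and calls that did not. Ltb, Tnfsf8, Tnfrsf9, Tnfrsf18, Tnfrsf1b and Tnfrsf13b kept their call in every one of the alternatives that tested them, 20 to 23 of 23, which is 6 of the 9 called members. For Ltb the log2 fold change ranged from 2.47 to 3.31 over these, and for Tnfrsf1b from 2.05 to 2.37. Cd40, Tnfrsf11b and Tnfsf13b lost their call in at least 1. Tnfsf8 was tested in only 20 alternatives. It fell under the filter without C1 or without D3, and at a mean of at least 20, and had no call there.

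**Figure D5:**
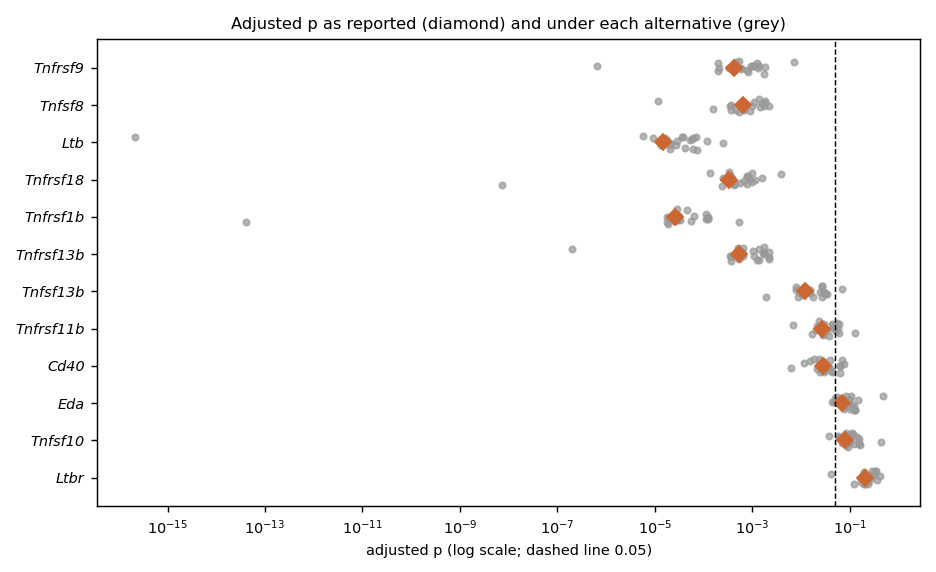
Adjusted p (horizontal axis, log scale, dashed line at 0.05) of the 9 called members and of the 3 members that passed in some alternative, as reported (diamonds) and under each of the 23 alternatives that tested it (grey points). The 6 uppermost genes stay left of the line, and Tnfsf13b, Tnfrsf11b, Cd40, Eda, Tnfsf10 and Ltbr have points on both sides.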

How the data were processed

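The table holds a signal per gene and library, which the authors deposited as normalized counts. Every value was a whole multiple of 1 step per library (100% within 0.006 of a whole read), so reads could be recovered from the deposited signal. Tools and build are named without their role: GRCm38, TopHat2 2.1.0, HTSeq 0.11.2, cutadapt 1.10, FastQC 0.11.5, DESeq2 1.18.1, Bowtie2 2.2.6 and Trim Galore, per the submitters' processing notes. Use of molecular identifiers is not stated, so intervals from reads cover counting error only.

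Log2(value + 1) was tested with limma 3.58.1 (R 4.3.3) and a mean-variance trend, two-sided, in 14712 genes whose mean reached 5. Benjamini-Hochberg adjustment ran over all of them, and adjusted p under 0.05 was called. No batch term could be fitted, because the letters in the library names are nested in treatment. Alternatives were other pseudocounts, filters and scalings, edgeR 4.0.16, DESeq2 1.42.0 and limma-voom on recovered reads, each library left out in turn, and the 3 shallowest left out together. Members, lists and the naming rule were chosen with earlier results of these data known. The rule names every member, up to 6 tested genes of each pathway list with the smallest p, the 3 receptors with other symbols, and Traf1, Birc3, Tnfaip3, Nfkb2, Relb and Map3k14. Other pathway genes named were chosen after their values were seen. Exon overlaps come from GENCODE M21.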

Additional observations from a re-analysis of the deposited data

Results flagged for a closer look

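In 7 of 54 groups of 5 libraries examined for the tested members, 1 library stood apart from the other 4, and chance gives about 1 in 20. Tnfrsf12a in OXA had 272.9 normalized counts in D1, against 85.24 to 103.81 in the other OXA libraries, and this was the one flagged OXA value. In vehicle, A1 was high for Tnfrsf1b (55.5 against 26.49 to 31.48) and for Edar (23.6 against 5.72 to 8.31). A5 was high for Eda (61.5 against 31.16 to 35.25) and low for Tnfrsf10b (11.4 against 24.36 to 27.73). The last pair were near the detection limit, namely Tnfrsf9 in A3 (3.90 against 0 to 1.04) and Tnfsf8 in A4 (1.04 against 0 in the others). No explanation was tested for any of these.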

How the results depend on the processing

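Over 23 alternatives the number of members called higher stayed within 1.5 times of 9, except for 4 at a mean of at least 20, where fewer members were tested. Leaving out 1 library gave 7 to 10. Members called lower numbered 0, or 1 (Eda) under quantile normalization, and 0 to 1 when 1 library was left out. Pathway genes called lower numbered 4, and 2 with no filter on low values, 1 after scaling to library totals, 2 without the 3 shallowest libraries and 1 to 6 when 1 library was left out. Signs turned for members that did not pass when 1 library was left out: Cd27 ranged from -0.46 to 0.11, turning without A1 or D3. Tnfrsf12a ranged from -0.11 (without D1) to 0.30, and Tnfrsf22 from -0.36 to 0.078, turning without C1 or D2. Il7, of the Ltbr list, stood at -0.19 without the 3 shallowest libraries. The cause was not tested. A1 to A4 and D1 to D4 share numbers, but the labels tie them to no litter, batch or day, and same-numbered libraries did not deviate together (correlations from -0.19 to 0.12 over 14712 genes). A fit with this number as a replicate block, chosen after seeing the data and without A5 and C1, called 7 members higher and 0 lower, 1428 and 1084 of all genes, and 19 and 1 pathway genes. The same 8 libraries without the block gave 7 and 0 members, 1704 and 1417 genes, and 22 and 1 pathway genes. Both fits lost the calls of Cd40 and Tnfrsf11b. For the 16 members under the filter a few reads, or none, decide each value, and why they were low was not tested.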
